A study of Rattus norvegicus with 36 samples.

Results

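The miRNAs described here are the 5 products of the paired miR-23, miR-27 and miR-24 clusters, namely rno-miR-23a-3p, rno-miR-27a-3p, rno-miR-23b-3p, rno-miR-27b-3p and rno-miR-24-3p, written below without the prefix for rat. They were found by name among the 947 miRNAs of the count table, and all 5 were present. The table counts small RNA reads in lung and in unfractionated blood. All rats were female WAG/RijCmcr, intact animals aged 9 to 10 weeks at irradiation, and the treated ones had a single X-ray dose of 15 Gy over the thorax. Each tissue had 6 groups of 3 libraries. Age-matched rats left at 0 Gy gave a group at 1 week and a group at 4 weeks, and the other groups received 15 Gy and were taken at 1, 2, 3 and 4 weeks. The field held the lung, the heart and some liver, and blood was drawn from the heart. The methods of the study state that a library pools RNA of 3 rats, while the sample labels give 3 rats per group, so n counts libraries throughout.

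A cluster of this kind is transcribed as one long precursor, from which each hairpin is then cut and processed on its own. Mammals carry an a cluster (miR-23a, miR-27a and one copy of miR-24) and a b cluster (miR-23b, miR-27b and the other copy of miR-24). miR-23 and miR-27 are known for roles in blood vessel growth, miR-27 also in lipid metabolism and fat cell differentiation, and miR-24 in control of the cell cycle. A miRNA chooses its target mRNAs mainly through its seed, bases 2 to 8, so the a and b forms of one miRNA are expected from their sequence to share targets.

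The mature sequences are shown to make clear how little separates the a and b forms, since the comparisons of a with b rest on reads that tell them apart. They come from RefSeq (build GRCr8), run 5′ to 3′, and have the seed in capitals.
rno-miR-23a-3p: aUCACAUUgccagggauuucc
rno-miR-23b-3p: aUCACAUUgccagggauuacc
rno-miR-27a-3p: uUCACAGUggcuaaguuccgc
rno-miR-27b-3p: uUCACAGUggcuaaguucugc
rno-miR-24-3p: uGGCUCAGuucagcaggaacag
miR-23a-3p and miR-23b-3p have 21 bases and differ by the substitution U19A, counted from 1 at the 5′ end of miR-23a-3p. miR-27a-3p and miR-27b-3p also have 21 bases and differ by C19U, from miR-27a-3p to miR-27b-3p. Both pairs keep 1 seed each, UCACAUU for miR-23 and UCACAGU for miR-27, and these 2 seeds share their first 5 bases. The seed of miR-24-3p, GGCUCAG, was found in no other name among 693 mature rat miRNAs. Since 1 base near the 3′ end separates the a from the b forms, and since the setting for reads that fit both is not given in the sources used here, the split between them is uncertain.

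In GRCr8 the a cluster lies on chr19:40859455-40859843, minus strand, and spans 389 bases. No annotated gene spans it, and the nearest gene on its lower-coordinate side is Zswim4. The b cluster lies on chr17:1818669-1819482, minus strand, spans 814 bases and falls inside the span of the protein-coding gene Aopep. Whether it is in an exon or an intron was not read from the table used. Hairpins of both clusters give the same mature miR-24-3p, Mir24-2 on chromosome 19 and Mir24-1 on chromosome 17, so its count cannot be assigned to either cluster.

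Blood libraries held 1156407 to 2340177 counts and lung libraries 8132 to 3807051. 2 lung libraries were shallow, below 0.1 of the lung median of 1269432 counts, namely 0 Gy 1 week replicate 3 with 11621 counts and 15 Gy 3 weeks replicate 3 with 8132. The labelled tissues were checked with marker miRNAs. The red cell miRNAs miR-486-5p, miR-451-5p, miR-144-3p and miR-144-5p took 84.9% to 96.0% of blood counts, of which miR-486-5p alone gave 83.3% to 95.9%. In lung they took 0.705% to 48.2%, with the highest share in the shallow 15 Gy 3 weeks replicate 3, and the 2 endothelial products of miR-126a took 0.372% to 2.96% there against 0.00137% to 0.00873% in blood. Smooth muscle miRNAs (5.02% to 17.9%) and epithelial miRNAs (0.320% to 0.878%) were also higher in lung than in blood (at most 0.0184% and 0.000985%). The blood cell lists other than red cells did not mark blood. Lymphocyte miRNAs took 0.00120% to 0.0231% of blood and 0.0594% to 0.240% of lung counts. Leukocyte miRNAs took 0.00449% to 0.109% and 0.00612% to 0.0492%. Each marker listed was counted in at least 1 library of both tissues. The 5 cluster miRNAs together took 0.0358% to 0.437% of a blood library and 0.299% to 1.31% of a lung library. In bulk tissue, more cells of one type and more RNA per cell cannot be told apart.

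miR-27b-3p was the most abundant of the 5 in every one of the 36 libraries, but by a very different margin in the 2 tissues. In blood of unirradiated rats it was counted 3192, 2879 and 569 times at 1 week and 2904, 3119 and 1960 times at 4 weeks. miR-27a-3p, which carries the same seed, was counted 68, 45 and 15 times at 1 week and 35, 38 and 41 times at 4 weeks in the same libraries. Blood thus held almost only the b form of miR-27. In lung of unirradiated rats miR-27b-3p was counted 12198, 5656 and 72 times at 1 week and 29706, 13018 and 3391 times at 4 weeks. miR-27a-3p was counted there 2868, 1818 and 24 times at 1 week and 5883, 1924 and 663 times at 4 weeks. The a form was therefore a sizeable part of miR-27 in each of these lung libraries, the shallow one included.

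The share of miR-27 counts given by miR-27b-3p was 98.2% ± 0.552 in blood and 81.0% ± 4.79 in lung at 0 Gy (SD, n = 6 libraries each). Within a library the ratio of miR-27b-3p to miR-27a-3p had a geometric mean of 56.9 in blood, spanning 36.7 to 81.8, and of 4.36 in lung, spanning 2.96 to 6.76, so the groups did not overlap. The difference was −3.71 on the log2 scale, or 13.1-fold (exact two-sided permutation test, p = 0.0022, adjusted p = 0.0036 over 5 ratios). This p is the smallest that 6 libraries against 6 can give. A ratio within a library does not depend on how libraries are scaled to each other. Over all doses and weeks the 18 blood libraries lay between 36.7 and 94.4 and the 18 lung libraries between 2.16 and 8.69. Counting error was widest in the shallow lung libraries, with a miR-27b share of 75% (exact 95% binomial interval 65.1% to 83.3%, 72 of 96 counts) and of 78.9% (67.6% to 87.7%, 56 of 71). These intervals cover counting error only, because PCR reads are not independent molecules.

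**Figure D1:**
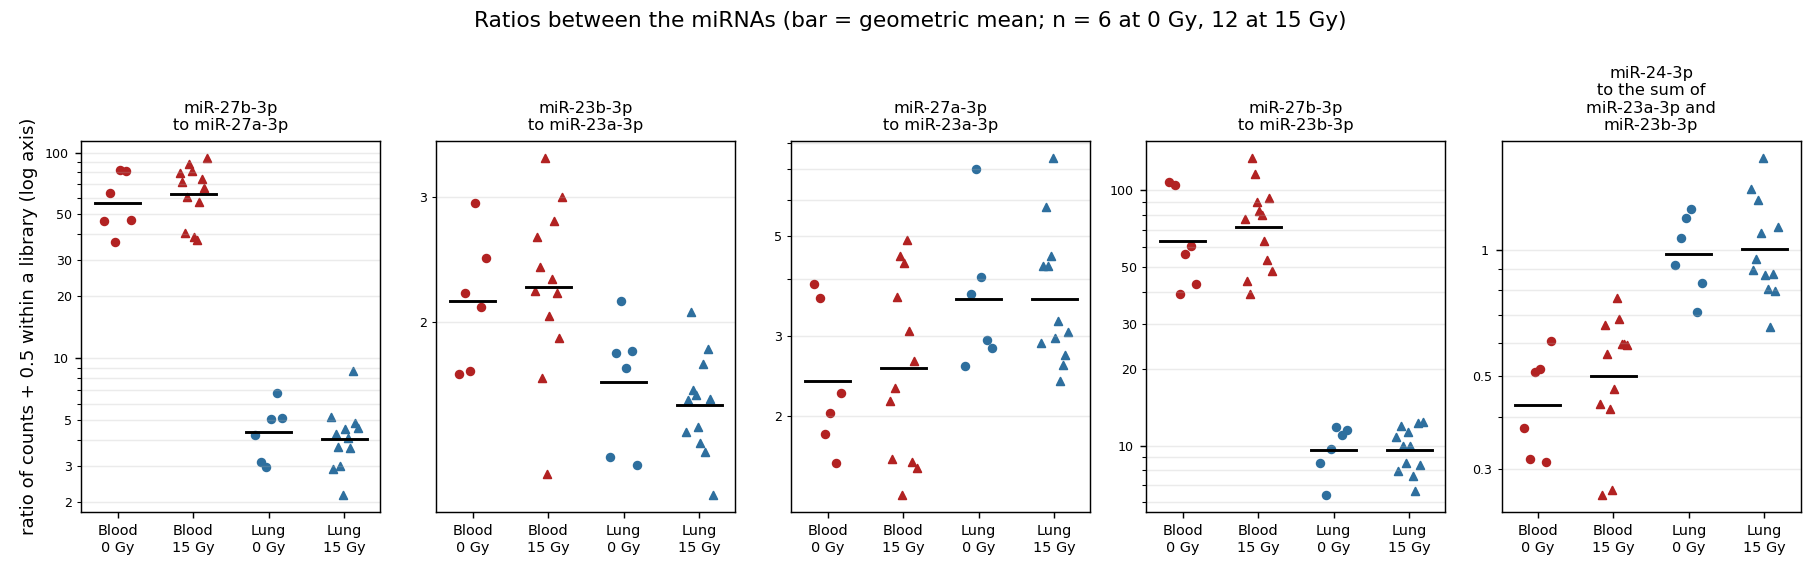
Ratios between counts (plus 0.5) of the cluster miRNAs within each library, on log axes that differ between the 5 panels, for blood (red) and lung (blue) at 0 Gy (circles, 6 libraries) and 15 Gy (triangles, 12 libraries); bars are geometric means. miR-27b-3p to miR-27a-3p lies at 36.7 to 94.4 in blood and 2.16 to 8.69 in lung, and within a tissue the 2 doses overlap in every panel.

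In lung 15 Gy 3 weeks replicate 3, where miR-486-5p took 48.1% of counts, miR-27b-3p was 3.65 times miR-27a-3p, from 56 and 15 counts. How much of the 5 miRNAs in lung libraries came from blood in the tissue was not tested.

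3 of the 5 ratios between cluster members differed between lung and blood at 0 Gy. miR-27b-3p to its cluster neighbour miR-23b-3p was 63.5 in blood, from 39.3 to 108, and 9.61 in lung, from 6.40 to 11.9, again with no overlap (log2 difference −2.72, exact permutation adjusted p = 0.0036). The last of these was miR-24-3p to the sum of miR-23a-3p and miR-23b-3p. It was 0.426 in blood, from 0.311 to 0.606, and 0.976 in lung, from 0.710 to 1.25, without overlap (log2 difference 1.20, exact permutation adjusted p = 0.0036). This ratio rests on 11 to 38 counts of miR-24-3p per blood library, and on 12 in the shallow lung library. Blood therefore had more miR-27b-3p, and less miR-24-3p, for a given count of miR-23 than lung.

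The remaining 2 ratios missed the threshold. miR-23b-3p was 2.14 times miR-23a-3p in blood and 1.64 times in lung (log2 difference −0.38, exact permutation p = 0.0693, adjusted p = 0.0779). miR-27a-3p was 2.39 times miR-23a-3p in blood and 3.62 times in lung (log2 difference 0.60, exact permutation p and adjusted p = 0.0779). Both turned on single libraries. Without lung 0 Gy 1 week replicate 3 the miR-23b to miR-23a difference was −0.46 (exact permutation adjusted p = 0.0433). Without blood 0 Gy 1 week replicate 1 it was −0.45 and that of miR-27a to miR-23a was 0.74 (exact permutation adjusted p = 0.0368 each).

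Of the 5 miRNAs' summed counts at 0 Gy, miR-27b-3p gave 94.9% ± 1.79 in blood and 63.9% ± 6.07 in lung (SD, n = 6). In lung miR-27a-3p gave 14.9% ± 3.50, miR-24-3p 10.5% ± 2.43, miR-23b-3p 6.62% ± 1.11 and miR-23a-3p 4.07% ± 1.12. In blood the shares of these 4 lay between 0.727% and 1.71%. Since all 5 have 21 or 22 bases, counts rank them without a length correction, although ligation and amplification can favour single sequences. Over all 18 lung libraries the order was miR-27b-3p, miR-27a-3p, miR-24-3p, miR-23b-3p and miR-23a-3p. Each neighbour in it was higher than the next in 18 of 18 libraries, except that miR-27a-3p exceeded miR-24-3p in 17 of 18. In blood miR-27b-3p was 61.0 times the next in order. There miR-27a-3p exceeded miR-23b-3p in only 10 of 18 libraries (geometric mean ratio 1.13, from 0.511 to 2.32), and those 2 levels did not differ beyond their spread. miR-23b-3p exceeded miR-24-3p in 17 of 18 blood libraries, and miR-24-3p exceeded miR-23a-3p in 13 of 18 with 2 ties.

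**Figure D2:**
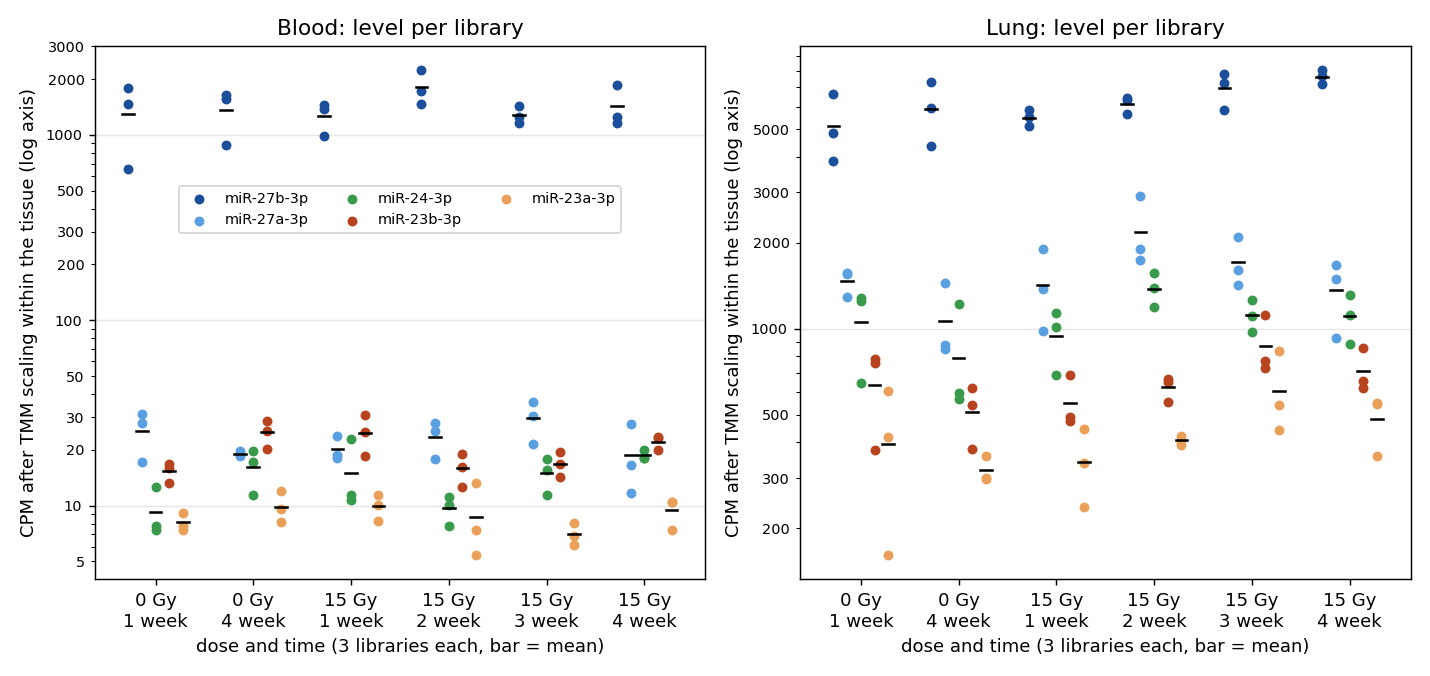
Level of each of the 5 miRNAs in every library in CPM (counts scaled to a common library size) after TMM scaling within the tissue, on log axes that differ between blood (left) and lung (right), by dose and week; points are libraries and bars are means of 3. miR-27b-3p stands far above the other 4 in blood and less far in lung, and libraries at 15 Gy lie among or near those at 0 Gy.

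In a joint fit of both tissues (edgeR quasi-likelihood test, TMM scaling, which assumes that most miRNAs are equal between libraries), 4 of the 5 were called higher in lung than in blood at 0 Gy. Between the tissues that assumption did not hold well, since the median log2 fold change of all tested was 1.85. Of the 576 miRNAs tested, 75% were called and 49.7% were called higher, so a call in this comparison is common. The split of all calls, 286 higher and 146 lower, ran from 428 and 46 with scaling by miR-191a-5p to 186 and 217 without blood 0 Gy 1 week replicate 1. The log2 fold changes, lung over blood, were 3.85 (SE 0.29) for miR-24-3p, 3.45 (SE 0.28) for miR-27a-3p, 2.94 (SE 0.27) for miR-23a-3p and 2.50 (SE 0.23) for miR-23b-3p. Their adjusted p were at most 4.16e-10. miR-27b-3p had a log2 fold change of −0.32 (SE 0.25, adjusted p = 0.249), while the median of all tested was 1.85. At an unadjusted p under 0.05 the same count was 4 of 5, against 76.2%.

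The sizes of these fold changes depend on how the tissues are scaled to each other, and for miR-27b-3p so does the direction. Over 24 alternatives its log2 fold change ran from −2.01 to 2.78, and it was called lower in 14, higher in 3 and not called in 7. Scaling by library totals gave 2.41 and scaling by miR-191a-5p gave 2.78, while RLE size factors gave −1.03. Leaving out single libraries moved it too. Without any one of the 6 blood libraries at 0 Gy it lay between −2.0 and −1.74, and without lung libraries other than 0 Gy 1 week replicate 2 between −2.01 and −1.82. The other 4 miRNAs were called higher in lung in each of the 24 alternatives, at log2 fold changes from 0.80 to 6.91. With single libraries left out they ran from 2.01 to 3.83 for miR-24-3p and from 1.73 to 3.46 for miR-27a-3p. For miR-23a-3p the range was 1.13 to 2.96 and for miR-23b-3p 0.80 to 2.47. The SEs given above do not cover shifts of this size. The median of all miRNAs moved between 0.34 and 4.62. Taken against that median, miR-27b-3p was lower in lung in all 24 (−2.58 to −0.94, and −2.18 as reported) and the other 4 were above it (0.21 to 3.35).

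**Figure D3:**
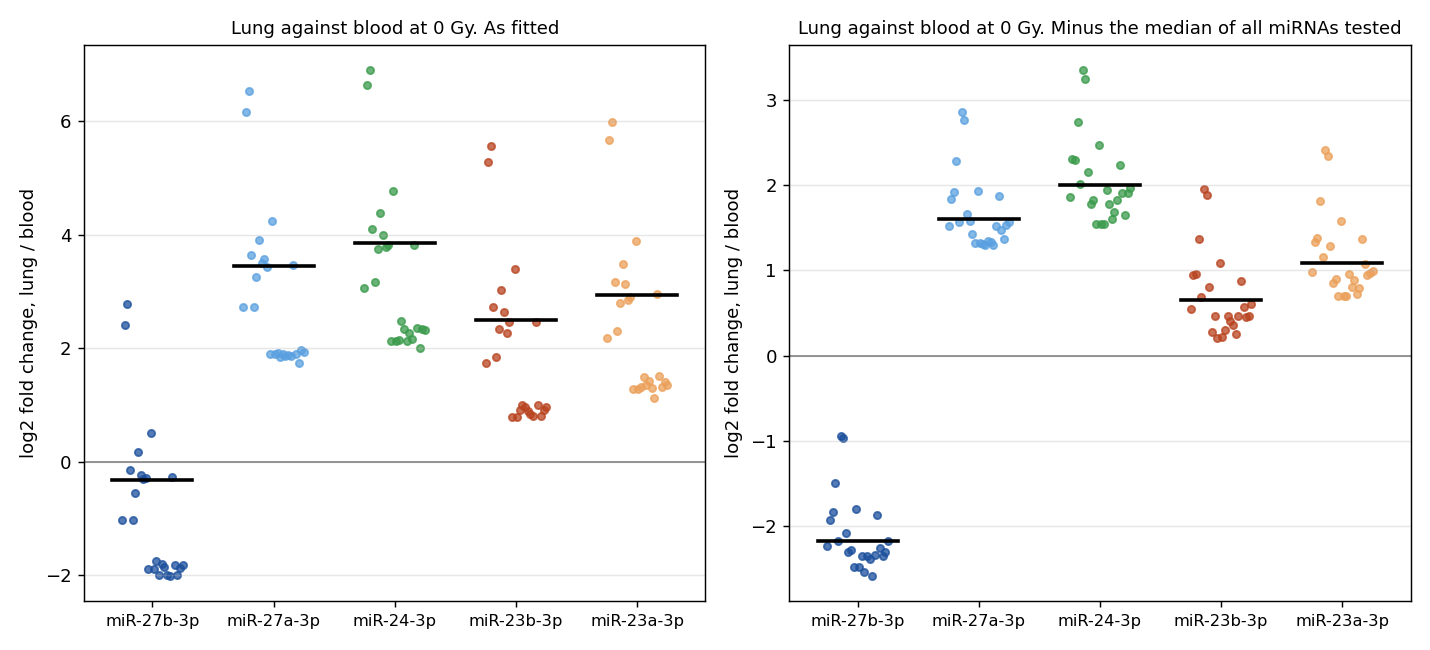
Log2 fold change of lung over blood at 0 Gy for each miRNA under 24 alternative ways of scaling, filtering or leaving out libraries (points) and as reported (bar), as fitted (left) and after subtracting the median of all miRNAs tested in that fit (right). As fitted, miR-27b-3p ranges from −2.01 to 2.78; against the median it stays between −2.58 and −0.94, below the other 4.

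After 15 Gy none of the 5 miRNAs passed the threshold at any week in either tissue, by edgeR or by DESeq2. In blood, edgeR called 0 of 5 at each week, against 0.346% of the 289 miRNAs tested at weeks 1 and 2, 0% at weeks 3 and 4 and 1.04% over all weeks. In lung it called 0 of 5 at each week, against 0% of the 499 tested at each week and over all weeks. At an unadjusted p under 0.05 the count in blood was 1 of 5 at 1 week (miR-23b-3p, against 6.23% of all tested) and 0 of 5 at 2, 3 and 4 weeks and over all weeks, where 11.8%, 14.9%, 7.61% and 16.3% of all tested had such a p. In lung it was 1 of 5 at 3 weeks (miR-23b-3p, against 7.82%) and 0 of 5 at 1, 2 and 4 weeks and over all weeks, against 10.4%, 5.21%, 9.62% and 9.02%. Over all weeks the log2 fold change of miR-27b-3p was 0.11 in blood (95% interval −0.31 to 0.52) and 0.25 in lung (−0.09 to 0.58). That of miR-27a-3p was 0.04 in blood (−0.37 to 0.45) and 0.39 in lung (−0.04 to 0.82).

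In lung the levels at 3 and 4 weeks lay on one side. All 5 had positive log2 fold changes at 3 weeks (0.24 to 0.87, median 0.68) and at 4 weeks (0.36 to 0.60, median 0.47), where the medians of all tested were −0.10 and −0.18, but scaled by miR-191a-5p only 3 of 5 were positive at 3 weeks and 0 of 5 at 4 weeks. Both weeks share the same 3 control libraries, so they are not independent, and those controls were the lowest of the 6 lung groups in mean CPM for 4 of the 5. Between the controls, 0 Gy at 4 weeks over 0 Gy at 1 week, the log2 fold changes were −0.35 for miR-23a-3p, −0.34 for miR-23b-3p, −0.43 for miR-24-3p, −0.47 for miR-27a-3p and 0.20 for miR-27b-3p (median −0.35, against 0.12 for all tested; adjusted p 0.666 to 0.953 by edgeR). With controls of 1 week in place of those of 4 weeks, the values ran at 3 weeks from 0.050 to 0.52 and at 4 weeks from −0.11 (miR-27a-3p) to 0.58 (miR-27b-3p). Those 1 week controls include the shallow replicate 3, with 3, 7 and 12 counts of miR-23a-3p, miR-23b-3p and miR-24-3p. With single libraries left out, the difference between the controls was −0.89 to −0.04 for miR-23a-3p and −0.78 to −0.24 for miR-23b-3p. It was −0.86 to −0.26 for miR-24-3p, −0.74 to −0.35 for miR-27a-3p and −0.16 to 0.34 for miR-27b-3p. Relative to the median of all tested, all 5 were above it at both weeks under TMM, RLE, library totals, miR-191a-5p scaling and DESeq2. At 1 week 0 of 5 were above that median under each of these, with a median of −0.17 among the 5 against 0.15 for all. Adjusted p at 3 and 4 weeks were 0.574 to 0.915 by edgeR's quasi-likelihood test, and none of these values was called.

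miR-23b-3p in lung was 618, 541 and 378 CPM at 0 Gy 4 weeks and 730, 769 and 1118 CPM at 15 Gy 3 weeks. The highest of these is the shallow library, with 8 counts of this miRNA. The 3 irradiated libraries lay above the 3 controls, and the log2 fold change was 0.74 (SE 0.34, edgeR quasi-likelihood test, unadjusted p = 0.0459, adjusted p = 0.574). Without the shallow lung libraries it was 0.53. At 4 weeks after 15 Gy the values were 655, 855 and 619 CPM, above the controls, the lowest at 619 against a highest control of 618. miR-23a-3p, at 359, 298 and 301 CPM in the controls and 541, 441 and 838 CPM at 3 weeks, did not overlap either (log2 fold change 0.87, SE 0.42, edgeR adjusted p = 0.574), with 6 counts in the shallow library and 0.58 without it. In lung 2 of 5 lay wholly above their controls at 3 weeks, against 2.4% of all tested, 1 of 5 at 4 weeks, against 4.81%, and 0 of 5 at 1 week, against 12.6%.

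miR-27a-3p in lung was 1561, 1556 and 1291 CPM at 0 Gy 1 week and 1737, 1900 and 2920 CPM at 15 Gy 2 weeks. It was the only one of the 5 that did not overlap with its controls at 2 weeks, where 14.8% of all tested lay wholly above (log2 fold change 0.57, SE 0.35, edgeR adjusted p = 1, but −0.08 with scaling by miR-191a-5p and 0.32 without the shallow libraries). miR-27b-3p in lung was 6640, 4840 and 3872 CPM at 0 Gy 1 week and 7329, 5934 and 4359 CPM at 0 Gy 4 weeks. At 15 Gy its group means lay between 5490 and 7640 CPM, the highest at 4 weeks (7640 ± 426, SD, n = 3 libraries). No week of irradiated lung stood apart from its controls for miR-27b-3p or miR-24-3p.

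**Figure D4:**
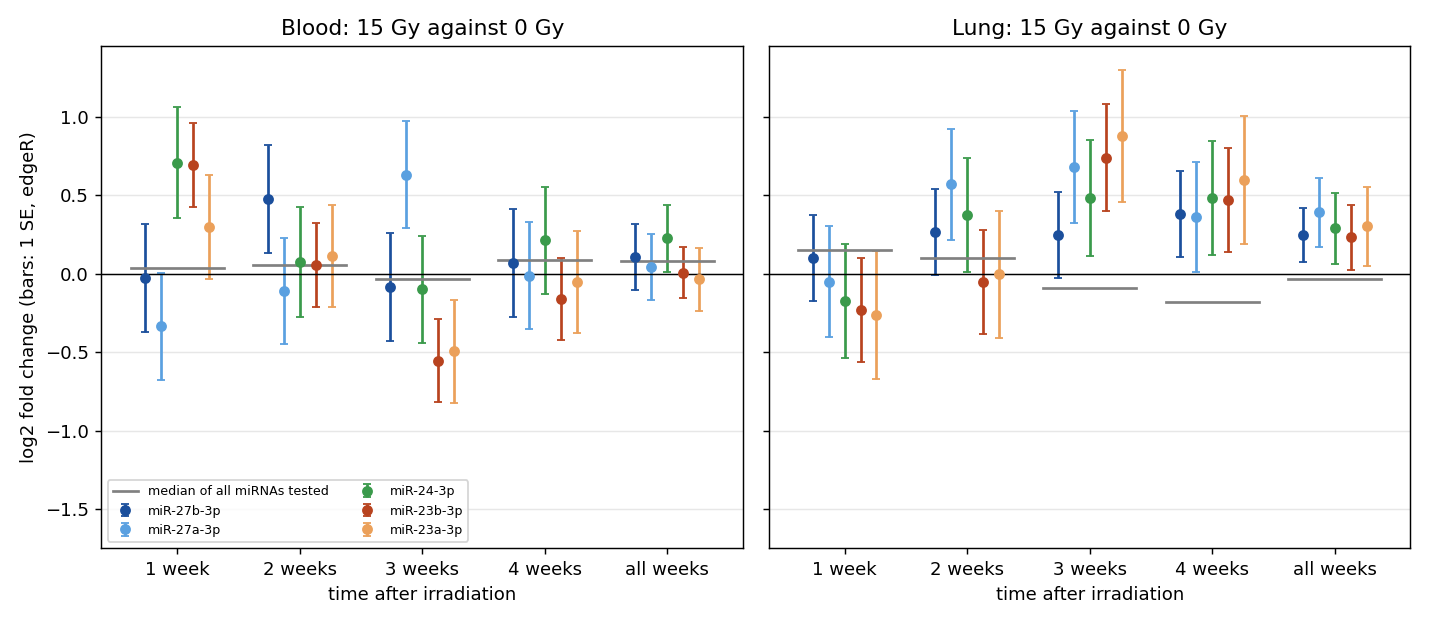
Log2 fold change of 15 Gy against 0 Gy for each miRNA by week and over all weeks, in blood (left) and lung (right), with bars of 1 SE from edgeR; grey lines are medians of all miRNAs tested. None of the values passed the threshold; in lung all 5 lie above the grey line at 3 and 4 weeks, where with scaling by miR-191a-5p the sign of 0 to 3 of the 5 is positive.

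In blood the members did not move together. miR-23b-3p was 13.2, 16.7 and 16.1 CPM at 0 Gy 1 week and 18.6, 30.9 and 24.8 CPM at 15 Gy 1 week, without overlap. It was the 1 of 5 that did not overlap at that week, against 8.65% of all tested, and at 2 and 4 weeks 0 of 5 did, against 21.1% and 10.4%. Its log2 fold change was 0.69 (SE 0.27, edgeR quasi-likelihood test, unadjusted p = 0.0217, adjusted p = 0.571). This value rests on 2 libraries whose labels are in doubt, because 0 Gy 1 week replicate 1 and 15 Gy 1 week replicate 2 of blood stand exchanged in a supplementary table of the study. With the 2 exchanged the log2 fold change was −0.18, and without both it was 0.15. Without 15 Gy 1 week replicate 2 alone it was 0.32. At 3 weeks miR-23b-3p was 16.8, 14.3 and 19.5 CPM against 28.8, 25.4 and 20.3 CPM in the controls (log2 fold change −0.56, SE 0.26, edgeR adjusted p = 0.337). In the same libraries miR-27a-3p was 36.4, 30.6 and 21.6 CPM against 19.7, 18.9 and 18.5 CPM (log2 fold change 0.63, SE 0.34, edgeR adjusted p = 0.392). At that week 3 of 5 did not overlap with their controls, 1 above and 2 below (miR-23a-3p being the other), against 27.3% of all tested.

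Between the time points of unirradiated rats, 2 of the 5 had an unadjusted p under 0.05 in blood. There the log2 fold change of 0 Gy at 4 weeks over 0 Gy at 1 week was 0.69 for miR-23b-3p (SE 0.27, unadjusted p = 0.0206) and 0.81 for miR-24-3p (SE 0.35, unadjusted p = 0.0361), both with an adjusted p of 0.961 by edgeR. With the 2 doubtful libraries exchanged that of miR-23b-3p was 0.22. The 2 of 5 in blood stand against 4.15% of all tested, and in lung the count was 0 of 5, against 7.21%. After adjustment 0 were called in blood (0.346% of all tested) and 0 in lung (0%). Among irradiated rats alone, weeks 3 and 4 against weeks 1 and 2 gave 0 of 5 calls in blood (0% of all tested) and 0 of 5 in lung (0.401%), and 0 of 5 at an unadjusted p under 0.05 in either (5.54% and 11.8%), with log2 fold changes in blood of −0.19 to 0.48 and in lung of −0.21 to 0.52. Age and time since irradiation cannot be told apart in that comparison.

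The balance between the a and b forms did not pass the test with dose in either tissue. The test pooled the libraries of all weeks, although controls exist at 1 and 4 weeks only. In lung the ratio of miR-27b-3p to miR-27a-3p was 4.05 at 15 Gy (12 libraries) and 4.36 at 0 Gy (6 libraries), a log2 difference of −0.10 (exact permutation test, p = 0.678, adjusted p = 0.998). In blood it was 63.1 and 56.9, a log2 difference of 0.15 (exact permutation test, p = 0.526, adjusted p = 0.773). The other 4 ratios had exact permutation adjusted p of 0.998 in lung and 0.773 in blood. By week, lung miR-27b-3p was 2.16 to 3.71 times miR-27a-3p at 2 weeks after 15 Gy and 4.6 to 8.69 times at 4 weeks. The controls lay at 2.96 to 4.25 at 1 week and 5.05 to 6.76 at 4 weeks, and these 2 control groups did not overlap. These values by week are given with no test.

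The effect of 15 Gy was also compared between lung and blood directly. In the joint fit the difference of the 15 Gy effect, lung minus blood, lay between −0.17 and 0.08 on the log2 scale for the 5 miRNAs, but its sign depended on the scaling, with 0.12 to 0.41 under RLE, 0.041 to 0.33 under DESeq2, −0.58 to −0.26 with library totals and −0.74 to −0.47 with miR-191a-5p. The median of all tested moved from −0.61 to 0.082 across these. In the joint fit with TMM the 5 had adjusted p of 1.00 each by edgeR, and 0 of 5 were called (0.174% of the 576 tested) or had an unadjusted p under 0.05 (12.3%). For the 5 ratios the permutation adjusted p of that difference were 0.740 to 0.817. Among 80 further differences between weeks or tissues, 0 were called by edgeR (lowest adjusted p = 0.233), against 0.0995% over all miRNAs, and 4 had an unadjusted p under 0.05, against 7.38%. All 4 were of miR-23b-3p, and 3 of them set a later week against 1 week in blood, whose groups hold the 2 doubtful libraries.

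Other products of the same hairpins separate the copies of miR-24, which share their 3p strand. miR-24-2-5p, from the a cluster, was counted 2104 times over the 16 lung libraries that were not shallow, and miR-24-1-5p, from the b cluster, 55 times. The first was higher in 16 of 16 of these libraries and the ratio of the sums was 38.3. In blood the sums were 49 and 3 counts over 18 libraries. How much of miR-24-3p came from either cluster was not tested. For miR-27 the 5p strands stood closer than the 3p strands, with 405 counts of miR-27b-5p and 203 of miR-27a-5p in these lung libraries, a ratio of 2.00. In blood they had 22 and 6 counts over 18 libraries, a ratio of 3.67, so few that the 5p strands say little about the balance there.

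The 3p strand outnumbered the 5p strand at both miR-27 hairpins. In lung miR-27b-3p was 354 times and miR-27a-3p 151 times its own 5p strand, from the sums over 16 libraries. In blood the ratio was 2451 for miR-27b, which rests on 22 counts of miR-27b-5p, and 143 for miR-27a, which rests on 6 counts of miR-27a-5p. miR-24-3p was 11.1 times miR-24-2-5p in lung and 10.3 times in blood, but since both copies give miR-24-3p this is not the ratio of 1 hairpin. miR-23a-5p and miR-23b-5p had no entry among the names used here. The entry for mmu-miR-3074-2-3p, named after a mouse miRNA, had 45 counts in lung and 0 in blood. In rat, Mir3074 is annotated opposite Mir24-1, but which copy of miR-24 this entry lies opposite was not tested. In lung none of the 3 of these products that were tested, miR-27a-5p, miR-27b-5p and miR-24-2-5p, was called in any of 7 comparisons of dose and week. Of all 499 tested, 0.401% were called between irradiated weeks 3 and 4 and weeks 1 and 2, and 0% in the other comparisons.

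Some entries listed as new were picked because their counts were near those of the known miRNAs in lung. The rule was a count within 25% in at least 10 lung libraries, or a place within 1000 bases of such an entry. Their likeness in lung therefore follows from the choice. These entries are named by coordinates on rn4, whose annotation was not used here. The entry at chr17:7351428-7351565 had 1.1 times the count of miR-27b-3p (median of 18 lung libraries, from 1.00 to 1.15), and the entry at chr17:7351671-7351799 had 1.01 times that of miR-23b-3p, within 25% in 15 of 18. A further entry, at chr19:25638547-25638840, had 1.1 times the sum of miR-23a-3p and miR-27a-3p in the 17 lung libraries that listed it. Other picked entries were listed at 0 in more libraries. The one at chr17:7351451-7351539 was at 0 in 17 blood libraries, but had 1.1 times the count of miR-27b-3p in the 15 lung libraries that listed it. The one at chr17:7351693-7351775 was at 0 in 10 lung libraries and had 1.03 times the count of miR-23b-3p in 8. The one at chr19:25638578-25638661 was at 0 in 18 blood libraries and had 1.13 times the count of miR-27a-3p in 14 lung libraries. The one at chr19:25638410-25638558 had 0.22 times the count of miR-23a-3p (median of 12 lung libraries). Chromosomes 17 and 19 are those of the b and a clusters. The study's methods describe new miRNAs as predicted from reads that matched no known miRNA, and whether some reads were listed under both names was not tested.

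One of these entries was called after 15 Gy in blood although the known miRNAs it followed were not. The entry at chr19:25638547-25638840 was listed at 0 in the 3 blood libraries at 0 Gy 1 week, where miR-27a-3p was counted 68, 45 and 15 times and miR-23a-3p 17, 12 and 8 times. In the other 15 blood libraries it had 19 to 217 counts, among them 74, 19 and 44 at 15 Gy 1 week and 58, 80 and 77 at 0 Gy 4 weeks. edgeR called it in blood at 1 week (adjusted p = 1.04e-05) and at 2 weeks (adjusted p = 9.00e-06) after 15 Gy, and between the controls at 4 weeks and 1 week (adjusted p = 7.87e-06). In each of these 3 comparisons it was the only call among the 289 tested (0.346%), and each uses the controls where it was listed at 0. miR-27a-3p and miR-23a-3p were called in none of those 3 comparisons.

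**Figure D5:**
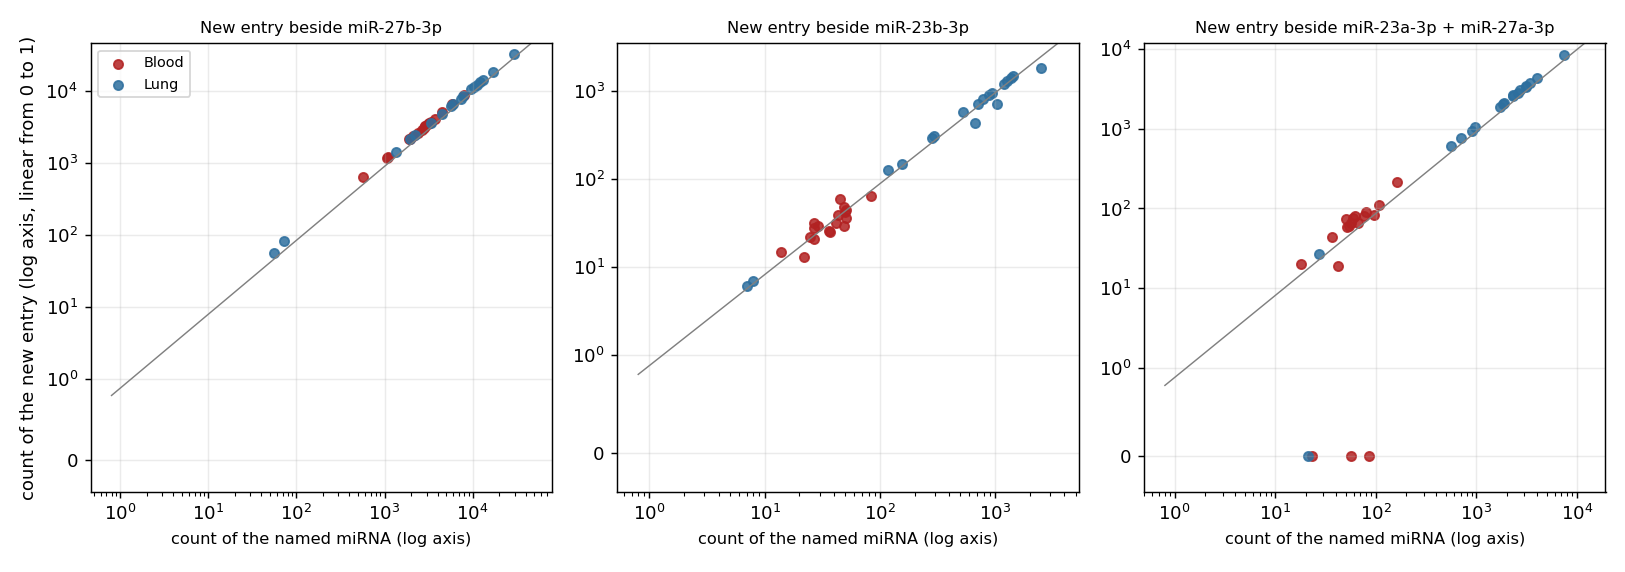
Counts of 3 entries listed as new against the counts of the known miRNAs they follow, one point per library (blood red, lung blue), log axes with 0 shown at the bottom and a grey line of equal counts. The entry beside miR-27b-3p is above 0 in all 36 libraries and lies along the line; the entry beside the sum of miR-23a-3p and miR-27a-3p is listed at 0 in 3 blood libraries and 1 lung library.

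Across lung libraries, none of the 3 miRNAs whose levels were most like those of a member came from its own cluster. Correlations are Pearson's r of log2 CPM over the 16 lung libraries that were not shallow, among 207 mature rat miRNAs. The libraries are all of lung but differ in dose, week and depth, and no p is given. miR-23a-3p and miR-23b-3p, of different clusters, had r = 0.77, and miR-27a-3p and miR-24-3p had r = 0.76. miR-27a-3p and miR-27b-3p had r = 0.20. The closest others were let-7f-1-3p, miR-130a-3p and miR-96-5p for miR-23a-3p (highest r 0.90), miR-24-2-5p, miR-15b-5p and miR-98-3p for miR-23b-3p (0.86), and miR-199a-5p, miR-484 and miR-872-3p for miR-27a-3p (0.83). For miR-27b-3p they were miR-22-3p, miR-146a-5p and miR-16-5p (highest r 0.85), and for miR-24-3p miR-199a-5p, miR-26a-5p and miR-99a-5p (0.80). In blood, over 18 libraries and 105 miRNAs, miR-27a-3p and miR-27b-3p had r = 0.38 and miR-27a-3p and miR-23b-3p r = −0.53. The closest there were miR-1839-5p, miR-192-5p and miR-181c-5p for miR-27b-3p (highest r 0.83), miR-210-3p, miR-3574 and miR-142-3p for miR-27a-3p (0.71), miR-191a-5p, miR-3589 and miR-99b-5p for miR-23b-3p (0.73) and miR-652-3p, miR-326-3p and miR-3589 for miR-24-3p (0.80). miR-23a-3p was below the minimum mean of 10 CPM in blood and was left out.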

How the data were processed

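The authors removed adapters, counted known miRNAs by Bowtie mapping to miRBase, and used miRanalyzer on unmatched reads to find new ones. The submitters' processing notes name Trim Galore 0.2.5, Bowtie 1.1.1 and rn4. The deposited values are the authors' raw counts, whole numbers per miRNA and library. Counts were tested in R 4.3.3 with the quasi-likelihood test of edgeR 4.0.16 (TMM scaling, filterByExpr, Benjamini-Hochberg adjustment over all miRNAs tested, threshold 0.05). Libraries of a tissue were fitted together, and all 36 for lung against blood. Controls at 1 week served irradiated weeks 1 and 2, and controls at 4 weeks served weeks 3 and 4. Ratios used counts plus 0.5 and exact two-sided permutation tests, with 100000 draws for the difference between tissues. DESeq2 1.42.0, other scalings, no filter, libraries left out, an exchange of 2 blood libraries and a replicate block were alternatives. DESeq2 without the shallow libraries and the removal of the 2 blood libraries were added after seeing the data. The miRNAs and lists were chosen with earlier results of these data known. The named miRNAs are the 5 members, the other products of their hairpins, new entries on the same chromosomes whose counts were within 25% of a member in at least 10 lung libraries or within 1000 bases of such an entry, and for each member the 3 mature miRNAs of highest correlation. The count test was tested on simulated data. Replicates are taken as separate pools, and if they were not, p-values measure technical spread only.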

Additional observations from a re-analysis of the deposited data

How the results depend on the processing

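The exact ratio tests of lung against blood kept their direction under every alternative run. With a replicate block (sign flips over 6 pairs of equal number) the differences of −3.71, −2.72 and 1.20 had an adjusted p of 0.0521, since 6 pairs cannot give a p below 0.0313. Lung and blood libraries of one number deviated from their group means with r from −0.13 to 0.10. Within a tissue, libraries of one number in different groups had r from −0.23 to 0.45 in blood and −0.20 to 0.38 in lung. Whether libraries of one number share rats cannot be settled from these values. The difference of miR-27a-3p to miR-23a-3p passed with a pseudocount of 5 (0.64), with the 2 blood libraries exchanged (0.82) and without them (0.74), and that of miR-23b-3p to miR-23a-3p passed without the shallow lung libraries (−0.46), with the exchange (−0.49) and without the 2 blood libraries (−0.45). Leaving out single libraries gave 0.41 to 0.74 and −0.46 to −0.29 for these. For 15 Gy against 0 Gy no ratio passed under any alternative. Values that changed sign were miR-27a-3p to miR-23a-3p in lung (0.020 and 0.12 with pseudocounts of 1 and 5, 0.24 without the shallow libraries) and, in blood, miR-27b-3p to miR-27a-3p (−0.0078 exchanged) and miR-23b-3p to miR-23a-3p (−0.10 exchanged, −0.027 without the 2 libraries). Leaving out single libraries gave −0.10 to 0.19, −0.22 to 0.023, −0.12 to 0.061 and −0.054 to 0.11 in lung for miR-27a to miR-23a, miR-27b to miR-27a, miR-27b to miR-23b and miR-24 to miR-23, and −0.0051 to 0.16 and −0.029 to 0.23 in blood for miR-23b to miR-23a and miR-27a to miR-23a. For miR-27b-3p, lung against blood turned to 2.41 (library totals), 2.78 (miR-191a-5p), 0.51 (DESeq2 without the shallow libraries) and 0.17 (mature rat miRNAs only, not called), and single libraries left out gave −2.01 to −0.28; the cause was not tested. The split of all calls, 286 higher and 146 lower, became 246 and 186 with RLE, 419 and 54 with library totals, 428 and 46 with miR-191a-5p, 217 and 185 with DESeq2, and 186 and 217 without the 2 blood libraries; among mature rat miRNAs alone 189 were called, fewer being tested. For dose and week, 1800 values of the 5 miRNAs under alternatives held 0 calls (lowest adjusted p = 0.128) and 303 changes of sign. DESeq2 called 2 to 29 miRNAs in the comparisons of dose and week where edgeR called 0 to 3. Over all weeks in blood edgeR called 3 miRNAs, 9 with the 2 blood libraries exchanged and 14 without them; among mature rat miRNAs alone it called 6 in lung at 1 week. DESeq2 without the shallow libraries called 6 to 26 in the lung comparisons.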
